A study of Rattus norvegicus with 10 samples.

Results

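Liver collected from rats 8 h after a burn injury was set against liver of sham rats collected at 0 h. The comparison holds 4 of the 10 arrays of the series, 2 titled 8 h and 2 titled as 0 h controls, chosen by title, and all probe sets of the array. Each array measured total RNA of rat liver on an Affymetrix rat chip, on which a probe set is a group of short probes that reads 1 transcript. The other 6 arrays come from burned rats at 1 h, 4 h and 24 h, 2 at each time. Strain, sex, age, burn size, the animal behind each array and any pooling are absent from the labels, so the p-values below measure only the spread between these arrays. No sham liver at 8 h is among the samples, so burn and the hours between 0 h and 8 h (time of day and fasting included) cannot be told apart.

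A burn is a severe tissue injury after which cytokines such as interleukin 6 reach the liver. The hepatocyte then makes more of a set of secreted plasma proteins, the positive acute phase proteins, and less of others such as albumin, the negative ones. In the rat the strongly induced members include alpha-2-macroglobulin, T-kininogen and alpha-1-acid glycoprotein. The factors STAT3, C/EBP beta, C/EBP delta and NF-kappaB are known to drive many of these genes.

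Values are the deposited intensities, in arbitrary units that can be compared between arrays for 1 probe set but not between probe sets. They were raised to a floor of 36.4 and taken to log2 for the test, and ± marks the standard error of a log2 difference. Of 8799 probe sets, 59 array controls were left out and 5254 were bright enough to test, covering 3142 named genes. A probe set is said to have risen or fallen when limma's Benjamini-Hochberg adjusted p was under 0.05. Against sham, 186 probe sets (3.54% of those tested) passed at 8 h. Of these, 82 (1.56%) rose and 104 (1.98%) fell, and 135 of the 186 differed by more than 2-fold. Higher probe sets made up 44.1% of those that passed, and between 27.9% (without 8 h replicate 1) and 62.5% (without sham replicate 1) with 1 array left out. At an unadjusted p under 0.05 there were 975. The passing probe sets carried 133 named genes, and 32 of them had no single gene name. The median log2 difference of all probe sets tested was -0.10. The counts of the gene lists below stand beside these shares, 1.56% higher and 1.98% lower over all probe sets tested. No list was tested as a set. In the gene lists below, a gene with several probe sets is counted by the one that is brightest on average. For 23 listed genes that one did not pass while another did, which was higher for 12 of them and lower for 11. A further 16 listed genes that passed had another probe set that did not. These were Cp, Il1r1, Junb, Dusp6, Klf9, Scd, Eci1, Crot, Oat, Psat1, Glul, Erp29, Gclm, Nr1d1, Thra and Slco2a1.

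All 10 arrays entered 1 fit, whose 5 groups shared 1 estimate of spread. With the 8 h and sham arrays alone in the fit, 0 probe sets passed limma's test and 773 had an unadjusted p under 0.05. Leaving out 1 array at a time left between 43 passing probe sets (without 8 h replicate 2) and 110 (without 24 h replicate 1). Of the 80 changed genes and probe sets named by rule, 20 kept their call with each of the 10 arrays left out. These were Lcn2, Orm1, H19, Akr1c13, Pgk1, C4bpa, Kng2, A2m, Fabp5, Wrap73, Lbp, Cyp2b2, Pex11a and Eci1 among those that rose, and Ces2e, Ccnd1, Ces1c, Nr1d1, Hsd17b2 and Scd among those that fell. The A2m call is on its probe set with both sham arrays under the floor. A further 15, named where they are described, lost the call whichever array was left out.

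The tissue carried its labelled cell type. The summed intensity of 9 hepatocyte markers was 309509 and 319324 on the 8 h arrays, against 261091 and 306535 on the sham arrays. Kupffer cell markers summed to 11450 and 11463.5 at 8 h and to 11548.8 and 12820.7 in sham, and 0 of their 9 tested members passed. Markers of the exocrine pancreas, an organ beside the liver, were present on all arrays, and 4 of their 20 tested members (Ctrb1, Pnlip, Prss2 and Rnase1) rose at 8 h, although Pnlip lost its call without any 1 of the 10 arrays (adjusted p up to 0.17). Their sum was 14825 and 14777.3 at 8 h, against 10524 and 11215.7 in sham, and on the other burn arrays it ran between 2636.1 and 50101.4. Without these markers 180 probe sets passed in place of 186. The RNA of the 8 h arrays also gave higher 3' to 5' control ratios. The beta-actin ratio was 1.25 and 1.46 at 8 h, against 0.826 and 0.955 in sham, and the GAPDH ratio was 1.45 and 1.36, against 1.18 and 1.28. The part of pancreatic RNA and of RNA integrity in the results below was not tested.

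Of 24 tested positive acute phase genes, 10 rose at 8 h and 0 fell, where 1.56% of all tested probe sets rose. Their median log2 difference was 0.76. The lipocalin Lcn2, a secreted protein that binds bacterial iron carriers, read 4129.7 and 4016.7 on the 8 h arrays, against 104.1 and 25.5 on the sham arrays. The dimmer sham array lay under the floor, so the fold of 66.2 (log2 6.05 ± 0.50, adjusted p = 0.00366) rests in part on it. Orm1, alpha-1-acid glycoprotein, which binds drugs and other small molecules in plasma, read 40688.8 and 44441.9 at 8 h and 4810.8 and 5861.2 in sham. Both 8 h arrays stood far above both sham arrays, a fold of 8.01 (log2 3.0 ± 0.17, adjusted p = 0.000985).

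Among the inhibitors of proteases, the kininogen gene Kng2 read 51714.6 and 59728.2 at 8 h, against 14989.4 and 14404.2 in sham. This was a 3.78-fold rise (log2 1.92 ± 0.16, adjusted p = 0.00366). Serpina3n, a serpin of the antichymotrypsin family, read 16598.5 and 14902.0 at 8 h, against 7422.6 and 7623.0 in sham (2.09-fold, adjusted p = 0.0197). Serping1, the inhibitor of the first complement component, read 6193.1 and 5500.7 at 8 h, against 3271.3 and 3574.3 in sham (1.71-fold, adjusted p = 0.0463). For each of the 3 genes both 8 h arrays lay above both sham arrays, which held for 18.4% of all probe sets tested. The genes are shown because they passed, so this separation is no separate support. A2m, alpha-2-macroglobulin, which traps proteases of every class, has 5 tested probe sets. Of these 3 rose, by at least 3.54-fold, 3.53-fold and 3.34-fold. On the first of them both sham arrays lay under the floor. On the last of them, A2m read 671.7 and 916.0 at 8 h, against 226.1 and 244.5 in sham. The other two did not pass, with log2 differences of 2.51 ± 0.58 (adjusted p = 0.0679) and 0.40 ± 0.20. Of Serpina1, alpha-1-antitrypsin, 1 of 3 probe sets rose, by 2.06-fold, while the brightest read 74558.7 and 79459.2 at 8 h and 57109.1 and 65039.2 in sham (adjusted p = 0.439).

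Another 3 members that rose carry heme, hemoglobin or metal. Hp, haptoglobin, which binds free hemoglobin, read 83924.3 and 89595.9 at 8 h, against 44163.1 and 47581.8 in sham (1.89-fold, adjusted p = 0.0331). Hpx, hemopexin, which binds free heme, read 63266.2 and 69556.7 at 8 h, against 30694.0 and 36538.2 in sham (1.98-fold, adjusted p = 0.0363). Cp, ceruloplasmin, the copper protein that oxidises iron, read 15081.9 and 14387.1 at 8 h and 7057.5 and 7052.4 in sham (2.09-fold, adjusted p = 0.0212). For all 3 both 8 h arrays lay above both sham arrays, as for 18.4% of all probe sets tested. These genes too are shown because they passed, so the separation adds no support. The other 2 Cp probe sets (log2 0.73 and 0.81) did not pass. Lbp, which presents bacterial lipopolysaccharide to its receptor, read 917.6 and 935.1 at 8 h, against 296.6 and 260.8 in sham, a 3.33-fold rise (log2 1.74 ± 0.15, adjusted p = 0.00366). Of the 3 fibrinogen chains, the clot-forming proteins, Fgb rose (log2 0.79, adjusted p = 0.0404), while Fgg at 0.61 did not pass. Fga rose on 1 of its 3 probe sets (log2 1.10, adjusted p = 0.0222), and its brightest, at 0.75, did not pass. Crp, C-reactive protein, fell on 1 of its 3 probe sets (log2 -1.36 ± 0.23, adjusted p = 0.0281), and the other two, at -0.49 and -0.06, did not pass. Fgb, Fga, Fgg and Crp were named after their values were seen. With arrays left out in turn, 4 to 6 of the 10 acute phase calls were kept. Hp, Hpx and Serping1 lost theirs without any 1 of the 10 arrays, with adjusted p up to 0.147, 0.17 and 0.19. Serpina3n and Cp lost theirs without either sham or either 8 h array, with adjusted p up to 0.0954 and 0.0989.

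**Figure D1:**
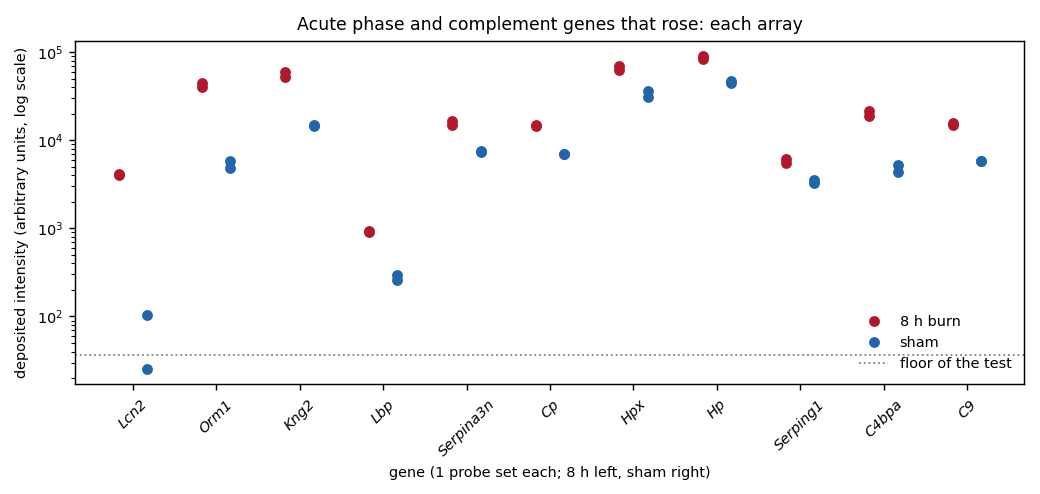
Deposited intensity (arbitrary units, log scale) of 11 acute phase and complement genes that rose, on each array, with the 8 h burn arrays left and the sham arrays right for each gene. Every 8 h point lies above both sham points, which held for 18.4% of all probe sets tested. The genes are shown because they rose, so this separation is no separate support. The dimmer sham array of Lcn2 lies under the floor of 36.4, drawn as a dotted line.

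The complement system is a cascade of plasma proteins that marks and lyses microbes, and most of its components are made in the liver. Of 16 tested complement genes 3 rose and 0 fell, where 1.56% of all probe sets rose and 1.98% fell. Their median log2 difference was 0.42. C4bpa, the alpha chain of the C4 binding protein, which restrains the cascade, read 18853.6 and 21378.9 at 8 h, against 5203.5 and 4382.7 in sham. Its rise was 4.2-fold (log2 2.07 ± 0.17, adjusted p = 0.00366). C9, which forms the membrane pore at the end of the cascade, read 15602.0 and 15002.6 at 8 h, against 5754.8 and 5871.1 in sham (2.63-fold, adjusted p = 0.0201). Leaving out any 1 of the 8 h or sham arrays ended its call (adjusted p up to 0.0959). Serping1, above, was the other. C1s, a protease that starts the cascade, read 5193.0 and 4505.6 at 8 h and 1969.2 and 2368.0 in sham, and did not pass (adjusted p = 0.0511).

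The promoters of the 2 genes with the largest acute phase rise, of Kng2 and C4bpa, and of Serpina3n are shown because all 5 genes rose at 8 h. They are RefSeq windows on GRCr8 from 250 bases before to 50 bases after the start of the gene, 5′ to 3′ on the strand of the gene. Capitals mark the letters TTGCNNAA, found in C/EBP elements, or TTCNNNGAA, found in STAT3 elements, on either strand.
Lcn2: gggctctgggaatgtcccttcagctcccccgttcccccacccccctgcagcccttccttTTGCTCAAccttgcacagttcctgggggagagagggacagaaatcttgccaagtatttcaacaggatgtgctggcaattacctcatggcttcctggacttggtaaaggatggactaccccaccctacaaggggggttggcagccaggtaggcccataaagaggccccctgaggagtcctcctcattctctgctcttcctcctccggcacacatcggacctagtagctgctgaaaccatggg
Orm1: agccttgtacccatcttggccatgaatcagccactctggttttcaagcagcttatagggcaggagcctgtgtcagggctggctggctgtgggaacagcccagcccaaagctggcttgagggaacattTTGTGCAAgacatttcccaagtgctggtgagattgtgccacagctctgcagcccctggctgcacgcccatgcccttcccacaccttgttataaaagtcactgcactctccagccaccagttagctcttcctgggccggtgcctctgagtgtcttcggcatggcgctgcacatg
Kng2: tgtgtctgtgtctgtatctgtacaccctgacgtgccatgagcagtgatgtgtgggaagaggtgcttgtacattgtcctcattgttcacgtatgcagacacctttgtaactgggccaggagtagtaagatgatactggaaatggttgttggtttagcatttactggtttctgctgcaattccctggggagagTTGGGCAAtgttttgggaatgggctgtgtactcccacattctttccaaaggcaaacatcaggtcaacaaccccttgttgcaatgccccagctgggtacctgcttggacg
C4bpa: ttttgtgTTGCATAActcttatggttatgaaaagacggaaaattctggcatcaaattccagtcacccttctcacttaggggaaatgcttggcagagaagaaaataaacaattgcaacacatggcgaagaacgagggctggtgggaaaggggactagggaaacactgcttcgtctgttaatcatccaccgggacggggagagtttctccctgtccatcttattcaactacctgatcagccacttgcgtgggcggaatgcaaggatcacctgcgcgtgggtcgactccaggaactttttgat
Serpina3n: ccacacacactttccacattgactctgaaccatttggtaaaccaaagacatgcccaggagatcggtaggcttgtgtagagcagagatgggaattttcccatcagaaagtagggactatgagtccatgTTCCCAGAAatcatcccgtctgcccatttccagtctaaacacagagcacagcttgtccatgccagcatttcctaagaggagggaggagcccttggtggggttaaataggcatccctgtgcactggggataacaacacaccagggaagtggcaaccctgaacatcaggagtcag

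The Lcn2 window is chr3:36081731-36082030 on the minus strand, that of Orm1 chr5:81788259-81788558 on the plus strand, that of Kng2 chr11:91418220-91418519 on the plus strand, that of C4bpa chr13:44663422-44663721 on the minus strand and that of Serpina3n chr6:129088142-129088441 on the plus strand. The C/EBP letters began 191 bases before the start in Lcn2, 123 in Orm1, 59 in Kng2 and 243 in C4bpa. Serpina3n held the STAT3 letters 123 bases before its start and no C/EBP letters. Of the 12 acute phase and complement genes that rose, 8 matched a window by symbol, and 7 of the 8 held the C/EBP letters. Of the 21 with a window that did not pass, 5 held them. The share over all 27457 genes with a window was 11.4%. The STAT3 letters stood in 2 of the 8 risen genes, 4 of the 21 others and 9.39% of all genes. The NF-kappaB letters (GGGA and CC with any 4 letters between), not shown in capitals, stood in 3, in 4 and in 20.9%. No match of 1 pattern overlapped a match of another in the windows shown. A match of letters is a description of the sequence and not a measured binding site.

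Cytokines act on the hepatocyte through receptors that signal by JAK kinases and STAT factors or by NF-kappaB. Of 20 tested cytokine receptors and members of the JAK-STAT and NF-kappaB pathways, 0 rose and 3 fell, with a median log2 difference of -0.29. Of all probe sets tested 1.98% fell. Il1r1, the receptor for interleukin 1, read 24.9 and 29.1 at 8 h on 1 probe set, both under the floor, against 267.8 and 306.4 in sham. That was at least 7.87-fold lower (adjusted p = 0.0418), but the other two Il1r1 probe sets were dim in both groups, with log2 differences of 0.19 and 0.32 that did not pass. Jak2, a kinase bound to cytokine and growth hormone receptors, read 73.4 and 35.6 at 8 h, against 202.4 and 202.9 in sham. Of its 8 h arrays 1 lay under the floor. Socs2, a feedback inhibitor of growth hormone signalling, read 95.8 and 110.6 at 8 h, against 337.4 and 323.2 in sham (3.21-fold lower, adjusted p = 0.0222). Jak2 and Socs2 lost their calls without either sham array, Jak2 also without either 4 h array and Socs2 also without either 8 h one (adjusted p up to 0.106 and 0.11). Stat3 at log2 0.84, Cebpd at 0.65 and Cebpb at -0.01, named after their values were seen, did not pass.

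Immediate early genes answer mitogens and stress within minutes, and their list here also holds genes of growth control and of the cell cycle. Of 31 tested members 1 rose and 3 fell (1.98% of all probe sets fell), and their median log2 difference was -0.30. Dusp1, a phosphatase that switches off MAP kinases and is induced by glucocorticoids, read 1151.6 and 956.7 at 8 h on its brightest probe set, against 2807.8 and 2538.2 in sham. It fell on all 3 of its tested probe sets, by 2.54-fold to 4-fold. Dusp6, a phosphatase that is specific for ERK, read 182.3 and 69.7 at 8 h, against 782.1 and 655.4 in sham (6.35-fold lower, adjusted p = 0.0431). Junb, a subunit of the AP-1 factor, read 477.8 and 343.8 at 8 h, against 1028.2 and 996.4 in sham (2.5-fold lower, adjusted p = 0.0249). The second probe sets of Dusp6 (log2 -1.03) and Junb (-1.57) did not pass.

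Ccnd1, cyclin D1, which drives cells into the cycle, has 4 tested probe sets. On 1 of them it read 136.9 and 201.0 at 8 h, against 732.0 and 878.3 in sham, a 4.83-fold fall (log2 -2.27 ± 0.24, adjusted p = 0.00603). On a further 2 the log2 differences were -2.34 and -2.02 with adjusted p of 0.0965 and 0.0542. The brightest read 606.4 and 677.0 at 8 h and 642.8 and 803.9 in sham (log2 -0.17). The one member that rose was Erbb2, a receptor tyrosine kinase, at 201.3 and 171.5 on the 8 h arrays, against 49.4 and 44.0 on the sham arrays (3.99-fold, adjusted p = 0.0296). Myc, a transcription factor that drives growth, fell on 1 of its 2 probe sets, which read 55.2 and 33.4 at 8 h and 145.4 and 147.8 in sham, with 1 array at the floor.

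Clock genes keep daily time in the liver. Of 7 tested members 0 rose and 3 fell, where 1.98% of all probe sets fell, with a median log2 difference of -0.92. Nr1d1, the repressor REV-ERB alpha, read 206.2 and 221.1 at 8 h, against 848.5 and 826.0 in sham (3.92-fold lower, log2 -1.97 ± 0.17, adjusted p = 0.00366). Dbp, a clock output factor, read 365.7 and 255.4 at 8 h on its brighter probe set, against 1007.7 and 1463.0 in sham (3.97-fold lower, adjusted p = 0.0185). Bhlhe40, a repressor tied to the clock and to hypoxia, read 158.6 and 116.7 at 8 h, against 519.9 and 446.9 in sham (3.54-fold lower, adjusted p = 0.0121). For these 3 genes both 8 h arrays lay below both sham arrays. The naming rule required this of the largest falls, so it is no separate support. The second Nr1d1 probe set (log2 -3.02) did not pass. The sham arrays are from 0 h, so the burn and the hour of collection cannot be told apart for these genes. The calls of Dbp and Bhlhe40 were lost without sham replicate 2 or 8 h replicate 2, and that of Bhlhe40 also without sham replicate 1 (adjusted p up to 0.082 and 0.0777).

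Carboxylesterases hydrolyse drugs and lipid esters. Of 8 tested carboxylesterases and other hydrolases 0 rose and 3 fell, where 1.98% of all probe sets fell. Their median log2 difference was -0.85. Ces2e, a carboxylesterase, read 89.9 and 31.3 at 8 h, against 1450.2 and 1174.5 in sham. It was 22.8-fold lower (log2 -4.51 ± 0.42, adjusted p = 0.00467), with 1 of the 8 h arrays at the floor. Ces1c, a secreted carboxylesterase, read 4589.6 and 3372.3 at 8 h, against 18051.9 and 16648.7 in sham (4.41-fold lower, adjusted p = 0.00417), and its second probe set fell by 3.7-fold. Lipc, hepatic lipase, which acts on plasma lipoproteins, read 1065.6 and 843.3 at 8 h, against 2199.5 and 2442.9 in sham (2.45-fold lower, adjusted p = 0.0185). Both Ces1c probe sets are of a kind that can read related genes, and the carboxylesterases are a close family, so the member concerned is uncertain.

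**Figure D2:**
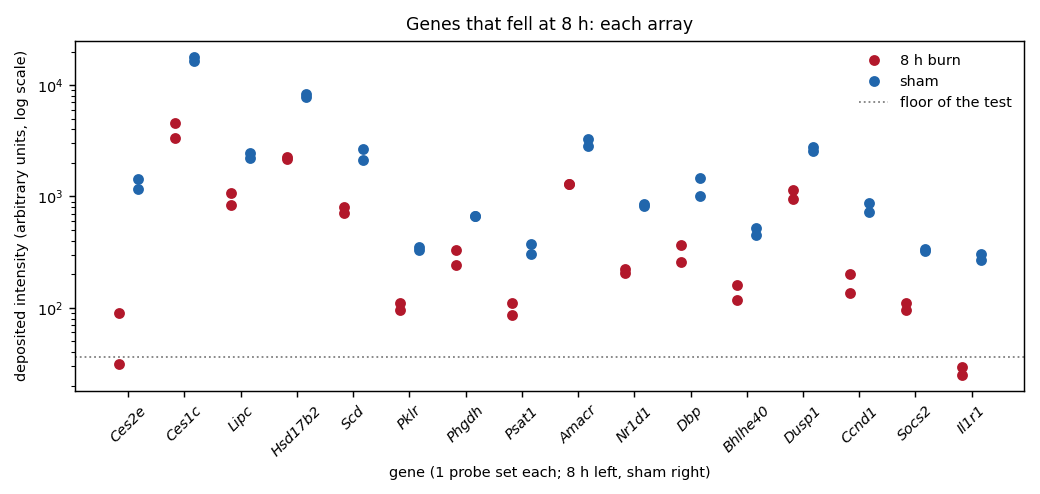
Deposited intensity (arbitrary units, log scale) on each array of 16 genes that fell, with 8 h burn left and sham right for each gene. Both 8 h points lie below both sham points for every gene. The genes are shown because they fell, so this separation is no separate support. Both 8 h points of Il1r1 and the dimmer 8 h point of Ces2e lie under the floor of 36.4, drawn as a dotted line.

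In lipid metabolism, Scd fell, while Eci1 and Acaa1b of fatty acid oxidation rose. Scd, the desaturase that makes oleic acid, read 709.1 and 801.0 at 8 h, against 2123.1 and 2681.6 in sham (3.17-fold lower, log2 -1.66 ± 0.17, adjusted p = 0.00603), and its second probe set gave -0.42 ± 0.59 and did not pass. It was the 1 of 16 tested synthesis genes that passed, and the median of the list was -0.23. Gpam, which adds the first fatty acid to glycerol phosphate, fell on 1 of its 5 probe sets. There it read 88.7 and 30.2 at 8 h, with 1 array under the floor, and 301.0 and 380.0 in sham. Its other 4 had log2 differences between -2.45 and -0.70 and did not pass. Of 29 tested genes of fatty acid oxidation 2 rose and 1 fell, where 1.56% of all probe sets rose and 1.98% fell. Their median was 0.02. Eci1, a mitochondrial isomerase for unsaturated fatty acids, read 6944.0 and 6674.9 at 8 h, against 2792.3 and 2833.2 in sham (2.42-fold higher, adjusted p = 0.00682). Of its other two probe sets 1 rose (log2 1.02) and 1, at -0.27, did not pass. Acaa1b, a thiolase of the peroxisome, read 1700.5 and 1707.5 at 8 h, against 666.9 and 781.5 in sham (2.36-fold higher, adjusted p = 0.0185). The gene that fell was Crot, which attaches medium-chain fatty acids to carnitine. It read 316.3 and 208.0 at 8 h and 723.8 and 740.4 in sham, and its second probe set (log2 -1.10) did not pass. Etfdh of the same list, which passes electrons to ubiquinone, fell on 1 of its 3 probe sets (log2 -1.83). The other 2, at -0.49 and -0.44, did not pass, and the brightest is among these.

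Another 3 genes of fatty acid handling rose on single probe sets. Fabp5, a cytosolic fatty acid binding protein, read 2800.6 and 2617.8 at 8 h, against 877.1 and 686.3 in sham (3.49-fold, adjusted p = 0.00469). Pex11a, which divides peroxisomes, read 247.2 and 254.1 at 8 h, against 96.4 and 85.1 in sham (2.77-fold, adjusted p = 0.00603), but its second probe set gave log2 0.10 ± 0.53. Cd36, a fatty acid uptake receptor, read 335.0 and 306.6 at 8 h, against 62.9 and 132.2 in sham (3.51-fold, adjusted p = 0.0341), and its second probe set gave 0.53 ± 0.38. Of 17 tested genes of cholesterol synthesis and uptake 1 rose and 0 fell (1.56% of all probe sets rose), with a median of -0.10. That gene was Ebp, a sterol isomerase, at 3111.8 and 2426.5 on the 8 h arrays, against 1378.6 and 1484.5 on the sham arrays (1.92-fold, adjusted p = 0.0463), and its call was lost without any 1 of the 10 arrays.

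The liver makes bile acids from cholesterol and pumps them into bile. Of 22 tested genes 1 rose and 3 fell, where 1.56% of all probe sets rose and 1.98% fell. Their median log2 difference was -0.36. Cyp7a1, the rate-limiting enzyme of bile acid synthesis, read 4700.9 and 3832.9 at 8 h, against 2289.4 and 2309.2 in sham (1.85-fold higher, adjusted p = 0.0481). Its call was lost without any 1 of the 10 arrays, with adjusted p up to 0.183. Amacr and Hsd3b7 of later steps fell. Amacr, a racemase of bile acid and branched-chain intermediates, read 1285.5 and 1304.3 at 8 h, against 2869.5 and 3312.4 in sham (2.38-fold lower, adjusted p = 0.0202). Hsd3b7, the enzyme that follows Cyp7a1, read 890.2 and 891.2 at 8 h, against 1615.0 and 1578.1 in sham (1.79-fold lower, adjusted p = 0.0341). Abcc3, an export pump on the blood side of the hepatocyte, read 78.9 and 67.8 at 8 h, against 261.2 and 249.3 in sham (3.49-fold lower, adjusted p = 0.0473). Groups did not overlap for these 4 genes, but that was common in this list. Both 8 h arrays lay above both sham arrays for 3 of the 22 genes, as for 18.4% of all probe sets tested. They lay below for 12 of the 22. The share of all probe sets that lay below is not given here, so the 12 cannot be weighed. Hsd3b7 too lost its call without any 1 of the 10 arrays.

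Cytochrome P450 enzymes oxidise drugs, steroids and fatty acids. Of 35 tested cytochrome P450 and flavin monooxygenase genes 2 rose and 1 fell, with a median of 0.02. Over all probe sets tested 1.56% rose and 1.98% fell. Cyp2b2, the classic phenobarbital-induced form, read 10571.5 and 10103.2 at 8 h, against 2899.2 and 3529.7 in sham (3.23-fold, log2 1.69 ± 0.16, adjusted p = 0.00469). Its second probe set rose by 1.89-fold, and both can read other Cyp2b genes. Cyp1a2, which oxidises caffeine, rose on 2 of its 3 probe sets (log2 0.84 and 1.00), although not on its brightest, and was named after its values were seen. Cyp17a1, a steroid hydroxylase, read 945.0 and 889.3 at 8 h, against 431.4 and 367.4 in sham (2.3-fold, adjusted p = 0.0217). Cyp2e1, the ethanol-oxidising form, fell on all 3 probe sets by 1.69-fold to 2.17-fold. Its brightest read 29149.0 and 27095.9 at 8 h, against 46706.2 and 48495.2 in sham, and lost its call without any 1 of the 10 arrays. Of 31 conjugation enzymes 0 rose and 2 fell (Gstm2 by 1.98-fold and Sult1c2a by 4.85-fold), with a median of -0.15.

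Among steroid and carbonyl dehydrogenases, Akr1c13, an aldo-keto reductase, read 1489.1 and 1448.8 at 8 h, against 296.6 and 221.1 in sham (5.74-fold higher, log2 2.52 ± 0.23, adjusted p = 0.00466). Hsd17b2, which inactivates estradiol and testosterone, read 2285.3 and 2188.8 at 8 h, against 7878.4 and 8249.3 in sham (3.6-fold lower, adjusted p = 0.00469). In each case the arrays of a group lay close together and far from the other group.

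Genes for making and breaking down heme were among those that rose. Of 14 tested genes of heme, iron and metals 3 rose and 0 fell, where 1.56% of all probe sets rose. Their median was 0.13, and Hpx and Cp above are 2 of the 3. Hmox1, which breaks heme down, read 1319.3 and 1131.3 at 8 h, against 401.7 and 550.7 in sham (2.6-fold, adjusted p = 0.0341), and its second probe set rose by 2.51-fold. Alas1, the first and rate-limiting step of heme synthesis, rose on 1 of its 2 probe sets, at 3178.6 and 2179.7 on the 8 h arrays, against 702.4 and 1201.6 on the sham arrays (2.87-fold, adjusted p = 0.0433). On the other it read 2735.3 and 2169.7 at 8 h and 1059.2 and 1291.5 in sham (adjusted p = 0.0593). The call of Hmox1 was lost in 8 and that of Alas1 in 9 of the 10 fits that left out 1 array (adjusted p up to 0.148 and 0.161).

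Both tested enzymes that make serine fell. Of 10 tested genes of serine, glycine and amino acid synthesis 0 rose and 3 fell, where 1.98% of all probe sets fell. Their median was -0.24. Phgdh, the first step of serine synthesis, read 243.5 and 329.3 at 8 h, against 664.1 and 665.7 in sham (2.35-fold lower, adjusted p = 0.0341), and its second probe set fell by 3.48-fold. Psat1, the second step, read 86.2 and 111.4 at 8 h, against 303.5 and 372.9 in sham (3.43-fold lower, adjusted p = 0.0249). Of its other 2 probe sets 1 fell (log2 -2.345) and 1, at -1.27, did not pass. Glul, glutamine synthetase, read 2763.3 and 2103.7 at 8 h, against 4523.2 and 5399.7 in sham (2.05-fold lower, adjusted p = 0.0443). Its other 3 probe sets, at log2 differences between -1.05 and -0.44, did not pass. Phgdh on its brighter probe set and Glul lost their calls without any 1 of the 10 arrays.

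Of 39 tested genes of amino acid breakdown and the urea cycle 1 rose and 3 fell, with a median of -0.07. Over all probe sets tested 1.56% rose and 1.98% fell. Got1, cytosolic aspartate aminotransferase, read 3862.7 and 3052.8 at 8 h, against 1493.2 and 1263.4 in sham (2.5-fold higher, adjusted p = 0.0204). Kynu, kynureninase of tryptophan breakdown, read 1023.2 and 909.6 at 8 h, against 2987.0 and 2211.9 in sham (2.66-fold lower, adjusted p = 0.0228). Agxt2, an aminotransferase of the mitochondrion, fell by 2.26-fold and Oat, ornithine aminotransferase, by 1.95-fold. The second Oat probe set (log2 -0.82) did not pass. Gnmt, which consumes the methyl donor S-adenosylmethionine, rose on 2 probe sets, by 2.38-fold and 1.87-fold, although its brightest did not pass. In glycolysis and gluconeogenesis 1 of 32 tested genes fell and 0 rose, where 1.98% of all probe sets fell. It was Pklr, liver pyruvate kinase, at 110.6 and 95.8 on the 8 h arrays, against 350.5 and 333.2 on the sham arrays (3.32-fold lower, adjusted p = 0.0139). Pgk1, phosphoglycerate kinase, rose by 5.13-fold on 1 probe set, which read 2602.0 and 2626.4 at 8 h and 426.2 and 609.2 in sham. Its other probe set read 1978.4 and 1679.4 at 8 h and 1270.7 and 1248.2 in sham (adjusted p = 0.116), so the 2 disagree in size.

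Of 16 tested negative acute phase and carrier proteins 0 rose and 2 fell (1.98% of all probe sets fell), with a median of -0.08. Mug1, murinoglobulin, a protease inhibitor known to fall in the rat acute phase, read 4130.6 and 3903.5 at 8 h, against 8790.2 and 9991.1 in sham (2.33-fold lower, adjusted p = 0.0109). Afm, afamin, which carries vitamin E, read 6953.8 and 6037.9 at 8 h, against 11502.5 and 11567.1 in sham (1.78-fold lower, adjusted p = 0.0443), and lost its call without any 1 of the 10 arrays. Albumin did not pass on any probe set. Its brightest, Alb, read 87926.3 and 94416.8 at 8 h and 58002.4 and 85464.4 in sham. Ttr, transthyretin, read 39692.0 and 34712.6 at 8 h and 36988.1 and 38949.8 in sham, so its groups overlapped. Apoa1, the main protein of high density lipoprotein, rose by 2.36-fold on 1 probe set, and on its brighter one read 29300.1 and 31590.1 at 8 h and 19053.1 and 20195.5 in sham (adjusted p = 0.0684).

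Mitochondrial and ribosomal genes had 0 members that passed limma's adjusted test. Among 34 tested genes of mitochondrial electron transport and ATP synthase the median log2 difference was 0.31, 29 were above 0, and for 19 both 8 h arrays lay above both sham arrays, which held for 18.4% of all probe sets tested. Among 37 ribosomal protein genes the median was 0.15 and the same count was 19. Under quantile normalization these medians were 0.21 and 0.08, beside a median of -0.01 for all probe sets. Proteasome (23 tested), coagulation (13) and cytosolic and mitochondrial heat shock genes (16) also had 0 that passed, although Psmb4 of the proteasome fell on 1 of its 3 probe sets (log2 -0.996, adjusted p = 0.0249). At the endoplasmic reticulum 2 of 24 rose and 0 fell, where 1.56% of all probe sets rose. These were Rpn2, a subunit of the enzyme that attaches sugar chains to new secreted proteins, at 3457.8 and 3284.0 on the 8 h arrays, against 1908.7 and 1811.1 on the sham arrays, and Erp29, a luminal chaperone, at 1883.7 and 1850.7, against 1135.3 and 982.2. Both lost their calls without any 1 of the 10 arrays, and the second Erp29 probe set (log2 0.67) did not pass.

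In the list of the IGF and growth hormone axis, 18 tested, the imprinted noncoding RNA H19 rose and 0 genes fell. It read 362.1 and 486.7 at 8 h, against 54.7 and 90.9 in sham (5.95-fold, log2 2.57 ± 0.27, adjusted p = 0.00603). Igfals, the carrier subunit that holds IGF in plasma, fell on 2 of 3 probe sets, by 1.79-fold and 1.85-fold, although not on its brightest (adjusted p = 0.0543). Of 20 tested hepatocyte transcription factors and nuclear receptors 1 fell and 0 rose, with a median of -0.38. It was Thra, a thyroid hormone receptor, at 102.9 and 95.3 on the 8 h arrays, against 241.2 and 221.4 on the sham arrays. The second Thra probe set lay the other way, at log2 1.46 ± 0.43, and did not pass (adjusted p = 0.129). Of 31 transporters 1 rose, Slco2a1, which takes up prostaglandins, at 4404.3 and 4440.7 on the 8 h arrays, against 1949.0 and 1989.6 on the sham arrays (2.25-fold, adjusted p = 0.0111), and its second probe set gave log2 0.23 ± 0.25. Of 12 glucocorticoid and fasting genes Got1 rose and 2 fell, Dusp1 above and Klf9, a glucocorticoid-induced factor, at 603.8 and 488.2 on the 8 h arrays, against 1051.4 and 952.5 on the sham arrays. Of 20 antioxidant genes Gclm, which modifies the first enzyme of glutathione synthesis, fell and 0 rose. Klf9 and Gclm lost their calls without any 1 of the 10 arrays. The second Klf9 probe set (log2 -0.50) and the other 2 of Gclm (-0.6 and -0.43) did not pass. Over all probe sets tested 1.56% rose and 1.98% fell, so 1 call in a list says little about the list.

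**Figure D3:**
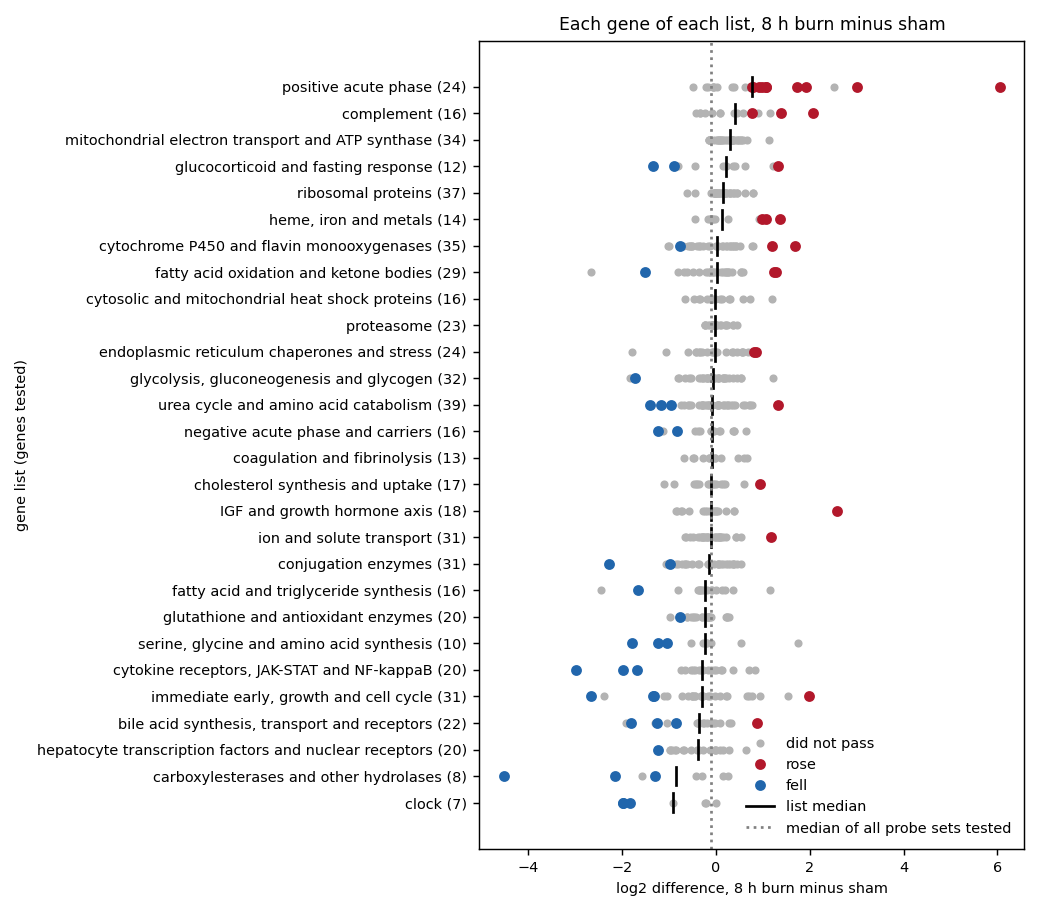
Log2 difference of 8 h burn minus sham for each tested gene (point) of the 28 gene lists, with genes that rose in red, genes that fell in blue and genes that did not pass in grey, black bars for the median of a list and a dotted line for the median of all probe sets tested (-0.10). The positive acute phase list lies farthest to the right, with a median of 0.76, and the clock list farthest to the left, with -0.92.

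Among the largest changes were also genes outside the lists. Wrap73, a centrosomal protein, read 160.7 and 204.0 at 8 h, against 59.1 and 48.6 in sham (3.38-fold, adjusted p = 0.00603). Alkbh7, a mitochondrial dioxygenase, read 312.0 and 302.1 at 8 h, against 104.5 and 82.4 in sham (3.31-fold, adjusted p = 0.00779). Irf7, a factor that induces interferon genes, rose on 1 of 2 probe sets, at 714.8 and 706.8 on the 8 h arrays, against 341.9 and 352.6 on the sham arrays. Among those that fell, Slc3a2, a shared subunit of amino acid transporters, did so on 2 probe sets by 3.5-fold and 2.11-fold. The probe sets of Klk1 (a kallikrein), Or1f20 (an olfactory receptor) and Huwe1 (a ubiquitin ligase) fell at low intensity, between 24.0 and 114.2 at 8 h and between 122.5 and 326.7 in sham. Cxcr2, a chemokine receptor of neutrophils, read 46.3 and 19.4 at 8 h, with 1 array under the floor, against 135.7 and 192.6 in sham. It was 1 of the 2 tested neutrophil markers among 8 on the array, and the other, Defa5, did not pass. Of the 6 too dim to enter the test, S100a9 read 102.8 and 115.3 at 8 h and 19.3 and 16.7 in sham. RatNP-3b, a defensin, lay the other way, at 9.5 and 18.4 at 8 h and 75.9 and 101.8 in sham, and the other four were at 70.7 or less on all 4 arrays. The largest fall of any probe set was of M23995_g_at, which has no single gene name in the annotation used here and read 8.1 and 8.8 at 8 h, against 1093.1 and 1030.3 in sham (at least 29.2-fold lower). M23995_at, of the same accession, fell less, at 888.2 and 1246.5 on the 8 h arrays, against 2475.1 and 2602.3 on the sham arrays (2.41-fold lower, adjusted p = 0.0251). In bulk tissue, fewer cells of a type and less RNA per cell cannot be told apart for any of these genes.

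How far single calls rest on single arrays differed between genes. Alkbh7 lost its call only without 8 h replicate 2 (adjusted p = 0.0508), and Dbp and Mug1 without sham replicate 2 or 8 h replicate 2 (up to 0.082). Lipc, Pklr, Agxt2, Slco2a1, Bhlhe40, Etfdh and Dusp1 on its brightest probe set lost theirs without sham replicate 1, sham replicate 2 or 8 h replicate 2 (up to 0.0937). Amacr, Acaa1b, Klk1, Got1 and Socs2 lost theirs without either sham or either 8 h array (up to 0.11), and Gpam without either sham or either 4 h array (up to 0.0995). Junb and Ctrb1 lost theirs in 5 of the 10 fits, and Erbb2, Kynu, Cyp17a1 and the brighter Psat1 probe set in 6 (up to 0.12). Abcc3, Cxcr2, Gstm2, Thra, Rnase1, Slc3a2, Crot, Oat, Or1f20, Sult1c2a and Il1r1 lost theirs in 8, and Cd36, Dusp6, Prss2 and Huwe1 in 9 (up to 0.184). No direction changed in any of these fits.

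The 8 h arrays also differed from the arrays of the other burn times. Against 1 h, 240 probe sets passed (4.57%), against 4 h 429 (8.17%) and against 24 h 624 (11.9%). These comparisons share the 8 h arrays with the comparison against sham. For positive acute phase genes, 9 of 24 were higher at 8 h than at 4 h and 0 lower, where 3.33% of all probe sets were higher and 4.83% lower. Against 24 h, 7 were higher and 1 lower, where 6% of all probe sets were higher and 5.88% lower. For complement, 8 of 16 were higher at 8 h than at 4 h, and 8 were higher at 8 h than at 24 h, with 0 lower in either case.

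Lcn2, at 4129.7 and 4016.7 on the 8 h arrays, read 122.1 and 72.6 at 4 h and 329.2 and 362.1 at 24 h. The 8 h level was 43.3-fold that of 4 h (adjusted p = 0.00138) and 11.8-fold that of 24 h (adjusted p = 0.00605). Orm1 read 5060.8 and 4639.0 at 4 h and 11753.0 and 13123.7 at 24 h, so that 8 h stood 8.78-fold and 3.42-fold above them. C4bpa read 5041.2 and 5463.8 at 4 h and 6314.8 and 7279.4 at 24 h, both below 8 h, by 3.83-fold and 2.96-fold. For C9 the 8 h arrays were 3.71-fold above 4 h and 3.59-fold above 24 h, and for Cp 2.23-fold and 2.34-fold above them. Against 1 h, Cp at 8 h did not pass (1.44-fold, adjusted p = 0.117).

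Not all genes that rose at 8 h stood highest there, whether in the acute phase list (A2m, Serpina3n) or outside it (Hmox1, Cyp2b2). A2m, on the probe set that had read 671.7 and 916.0 at 8 h, read 3208.8 and 3289.7 at 24 h, which put 8 h 4.14-fold below 24 h (adjusted p = 0.000997). Serpina3n read 31974.2 and 32059.2 at 24 h, with 8 h 2.04-fold below (adjusted p = 0.00767). Hmox1 read 4919.4 and 5303.9 at 4 h, and 8 h was 4.18-fold below it (adjusted p = 0.00347). Cyp2b2 read 30009.9 and 28172.1 at 24 h, with 8 h 2.81-fold below.

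Among metabolic genes, the 8 h arrays held the lowest level of Scd and Ces1c of any group. Scd read 3241.5 and 3349.7 at 4 h and 1923.8 and 1838.6 at 24 h, and 8 h was 4.37-fold and 2.5-fold lower. Ces1c read 14231.9 and 13723.4 at 4 h and 12996.2 and 12017.3 at 24 h, and 8 h was 3.55-fold and 3.18-fold lower. Cyp7a1 went the other way, at 1405.9 and 1708.8 at 4 h and 293.8 and 326.4 at 24 h, so that 8 h was 2.74-fold and 13.7-fold higher (adjusted p = 0.00436 and 0.000112). Against 1 h it did not pass (1.21-fold, adjusted p = 0.427). Irf7 read 58.9 and 53.6 at 4 h and 44.5 and 55.2 at 24 h, so that 8 h was 12.7-fold and 14.3-fold higher. The pancreas markers moved in the same comparisons. Of 20 tested, 14 were higher at 8 h than at 4 h, where 3.33% of all probe sets were higher. Against 24 h, 14 were higher, where 6% of all probe sets were, and 0 were lower in either case. Against 1 h, 15 of the 20 were lower at 8 h and 0 higher, where 4.57% of all probe sets passed in either direction. The part of these markers in these differences was not tested.

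**Figure D4:**
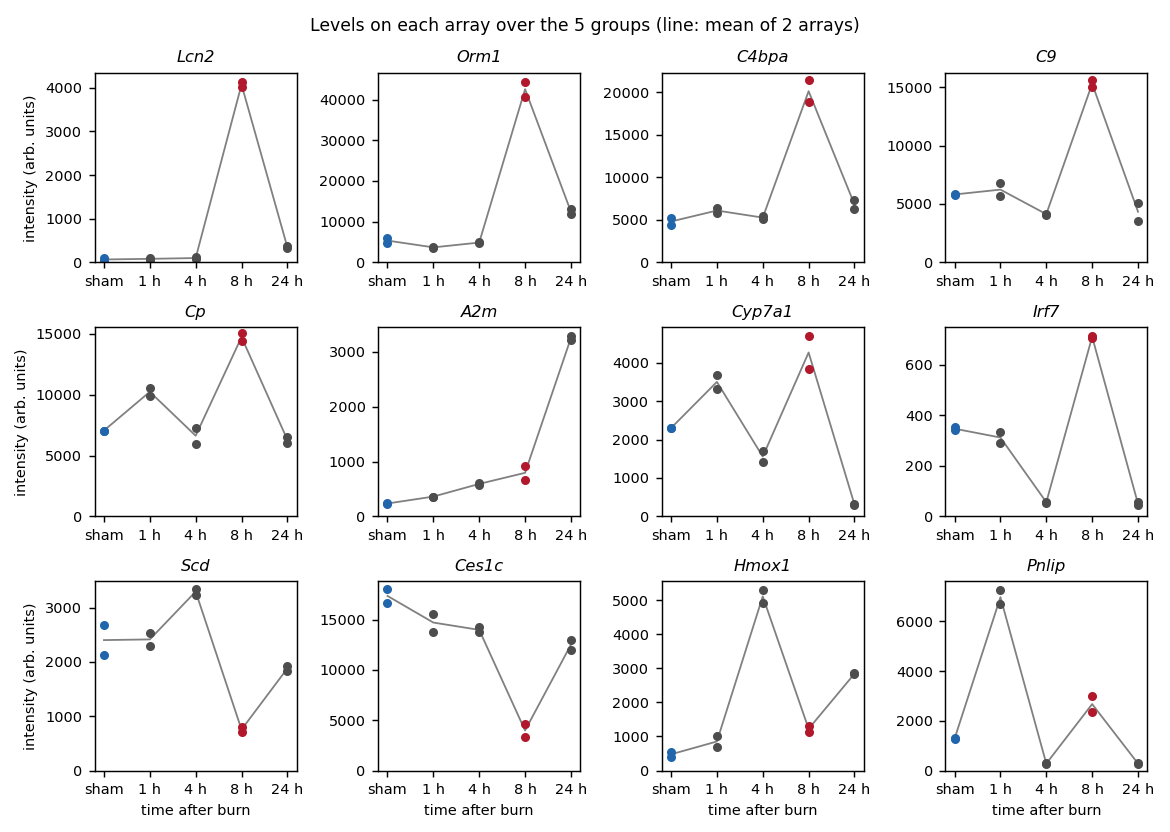
Deposited intensity (arbitrary units, linear axes from 0) of 12 genes, 1 probe set each, on every array of the 5 groups in order of time, with points for arrays (8 h in red, sham in blue) and a line through the mean of each group. Lcn2, Orm1, C4bpa, C9, Cp, Cyp7a1 and Irf7 are highest at 8 h, Scd and Ces1c are lowest there, and A2m is highest at 24 h, Hmox1 at 4 h and Pnlip at 1 h.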

How the data were processed

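The values were intensities of 8799 probe sets on 10 Affymetrix rat arrays, as deposited by the authors in the series' value table. The software and scaling behind these intensities are not given in the sources used here. After trimming, the mean intensity (2% left out at each end) was between 500.9 and 501.0 on every array, median intensities ran between 100.1 (8 h replicate 1) and 131.1, and no depth exists for arrays, so their number, 2 per group, limits the precision. The 2 arrays of a group correlated at 0.962 for 8 h and 0.961 for sham, on floored log2 values of all probe sets other than the controls. Between them, 12.2% and 11.5% of tested probe sets differed by more than 2-fold.

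Values were raised to a floor of 36.4, the median of the arrays' 25th percentiles, and taken to log2. The filter kept 5254 probe sets that exceeded an array's median intensity on 2 or more of the 10 arrays, after 59 control probe sets were left out. A fit of 5 groups with limma 3.58.1 in R 4.3.3 (lmFit, eBayes, 5 residual degrees of freedom) gave two-sided tests, adjusted by Benjamini-Hochberg over all probe sets tested. Where both arrays of the lower group were at the floor, the fold is given as "at least". Genes came from the annotation of the platform, in which 7018 probe sets had 1 symbol, 308 several and 1473 were not listed, and 6994 were found by ID in the RefSeq table for GRCr8, with 0 symbols changed. In the lists, the brightest probe set on average stood for a gene that had several.

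The 28 gene lists, the 11 marker lists, the motifs and the rule for naming genes were chosen with earlier results of these data known. The rule named the 20 genes with the largest rise and the 20 with the largest fall among passing probe sets whose 8 h arrays lay beyond the sham arrays, the up to 8 members with the smallest p in each list, the 10 largest changes each way against each other burn time, and all markers. The test was tried on simulated data. The alternatives tried were another scaling, floor, filter and variance model, a replicate block, plain probe set designs, fits of the compared groups alone and each array left out. Chosen after seeing the data were fits with control probe sets kept, without the pancreas markers and without the 1 h arrays.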

Additional observations from a re-analysis of the deposited data

Results flagged for a closer look

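Differences between burn times, tested as contrasts of the 8 h arrays with another time, drew attention at several genes. The number of probe sets that passed limma's adjusted test was 429 for 8 h minus 4 h, 624 for 8 h minus 24 h and 240 for 8 h minus 1 h. Klf9 was lower at 8 h than at 4 h (log2 -1.94 ± 0.17), and Erp29 was higher (1.72 ± 0.16). Against 24 h, the 8 h arrays were higher in Cyp7a1 (log2 3.78 ± 0.18), Cd36 (3.14 ± 0.32 on 1 of 2 probe sets) and Slco2a1 (2.16 ± 0.14). Cyp2b2 was higher at 8 h than at 1 h (2.87 ± 0.16). The pancreatic chymotrypsinogen Ctrb1 was higher at 8 h than at 4 h (4.14 ± 0.26) and at 24 h (4.93 ± 0.26), where it read 1607.4 and 1360.3 at 8 h, 78.7 and 89.0 at 4 h and 52.8 and 44.8 at 24 h.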

How the results depend on the processing

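Against sham, 186 probe sets passed at 8 h (82 higher, 104 lower), with 10 positive acute phase genes higher. With each array left out in turn these counts ran between 43 and 110, between 19 and 44, between 18 and 66 and between 4 and 6. A lone array left in a group is then assumed to vary like the other groups. The same fits gave 182 to 366 for 8 h minus 4 h (429 with all arrays), 253 to 575 for 8 h minus 24 h (624) and 76 to 199 for 8 h minus 1 h (240). With only the compared groups in the fit, limma called 0 against sham (0 higher, 0 lower, 0 acute phase genes, 773 at unadjusted p under 0.05), 70 for 8 h minus 4 h, 167 for 8 h minus 24 h and 0 for 8 h minus 1 h. That fit has fewer arrays to estimate the spread. Plain probe set designs alone (3378 tested) gave 67 against sham (33 higher, 34 lower), 240 against 4 h, 358 against 24 h and 119 against 1 h. An intensity trend with robust variance gave 375 (162 higher, 213 lower), 672 against 4 h and 490 against 1 h. A floor at the 50th percentile gave 311 (134 higher, 177 lower) and 426 against 1 h. No filter (8740 tested) gave 278 (130 higher) and 361 against 1 h. Quantile normalization left 6 acute phase genes higher, and its split was 50.6% higher, against 44.1% in the main setting. Without the 1 h arrays, 91 passed (41 higher, 50 lower) with 6 acute phase genes. Where no construction shows it, the cause was not tested. No named gene changed direction in any setting, but the share of calls that were higher passed 50% without either sham array (62.5% and 59.6%), and quantile normalization turned the small medians of the cytochrome P450 list (0.02 to -0.04) and the fatty acid oxidation list (0.02 to -0.02).

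A fit with the replicate number as a block gave 155 against sham. Over 10 pairs of groups, deviations of arrays with the same number correlated at 0.012 to 0.17, with 5 above 0.1, so pairing by number was not taken as shown. The block kept 68 of the 80 named changes against sham and ended 12, among them Il1r1, Dusp6, Thra, Serping1, Cyp7a1 and Alas1. Of the 80 named changes against sham, 20 were kept with each array left out and 18 in every setting other than the fit of compared groups alone, wherever the probe set was tested. A2m and Wrap73 were kept with each array left out but are not among the 18. With the floor at the 50th percentile the log2 difference of that A2m probe set was 0.09, against 1.82 in the main setting. Signal limits the dim genes: 9 of the 186 had both arrays of the lower group at the floor and 10 had 1.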
